A study of Rattus norvegicus with 24 samples.

Results

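Nqo1, Akr7a3, Ptgr1, Ephx1, Gpx2, Prdx6 and Me1 are 7 genes of detoxification and redox balance that the transcription factor Nrf2 is known to switch on in liver and other tissues. They were taken by name, as all probes whose gene name or RefSeq record on the array is one of these genes, in its current or an older form. The 7 genes were chosen with earlier results of these data known, so their counts beside the shares of all genes are descriptions. Ptgr1 stood on the array as Ltb4dh. The 7 genes had 18 probes of 14 distinct sequences, out of 21900 probes, and all 7 passed the filter on dim probes and are among the 12079 genes tested.

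Male rats of the inbred strain F344, aged 5 weeks per the labels, were gavaged once a day for 28 days, 4 rats for each of 6 compounds, and their liver RNA was measured. The design gives 4 compounds as carcinogens. These were 3-(4-chlorophenyl)-1,1-dimethylurea, known as monuron, at 250 mg per kg and day, hexachloroethane at 500 mg per kg and day, 1-amino-2-methylanthraquinone at 150 mg per kg and day, and 1,2,3-trichloropropane at 50 mg per kg and day. The non-carcinogens were 1,2-dichlorobenzene at 300 mg per kg and day and the antibiotic tetracycline hydrochloride at 1000 mg per kg and day. Corn oil was the vehicle of all but tetracycline hydrochloride, whose vehicle was water, and the volume was 5 ml/kg throughout. On each of the 24 arrays the Cy3 dye carried the RNA of 1 treated rat and the Cy5 dye RNA pooled from rats given vehicle, so each value below is the log2 ratio of 1 treated rat over its vehicle pool. The pool counts as 1 control sample, its own spread is left out of every comparison with vehicle, and the number of arrays limits the precision. Comparisons between compounds also hold any difference between their vehicle channels, which the fit cannot tell apart from the compound.

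Nrf2 is held in the cytoplasm by Keap1 and broken down; electrophiles and oxidants modify Keap1, Nrf2 then accumulates in the nucleus, and it binds antioxidant response elements beside its target genes. The targets include reductases that remove reactive quinones and aldehydes, enzymes that hydrolyse epoxides, peroxidases that remove peroxides, and enzymes that supply the NADPH these reactions use. Several of them have other regulators in liver as well, such as the aryl hydrocarbon receptor and CAR for the drug-metabolising genes and lipogenic factors for Me1.

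The probes that represent the genes are shown because each value rests on 60 bases of the transcript. For Prdx6 the capitals mark the 58 bases that its probe shares with another Prdx6 probe, so that those 2 probes are not independent readings. Gpx2 is shown with both its probes because they gave different ratios.
Nqo1 probe: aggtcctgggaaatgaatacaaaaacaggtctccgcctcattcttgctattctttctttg
Akr7a3 probe: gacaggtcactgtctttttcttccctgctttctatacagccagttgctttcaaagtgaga
Ptgr1 probe: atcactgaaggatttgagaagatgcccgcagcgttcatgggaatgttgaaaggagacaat
Ephx1 probe: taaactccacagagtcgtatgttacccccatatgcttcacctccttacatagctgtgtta
Gpx2 brighter probe: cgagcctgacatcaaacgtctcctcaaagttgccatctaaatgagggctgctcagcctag
Gpx2 dimmer probe: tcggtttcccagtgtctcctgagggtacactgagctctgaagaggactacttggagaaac
Prdx6 probe: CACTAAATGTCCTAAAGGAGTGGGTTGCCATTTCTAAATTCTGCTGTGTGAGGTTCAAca
Me1 probe: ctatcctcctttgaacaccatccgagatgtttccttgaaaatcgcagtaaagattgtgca

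Promoter windows of 250 bases before to 50 bases after the start of transcription came from RefSeq on the rat assembly GRCr8, each on the strand of its gene. Windows were held for Nqo1, Akr7a3, Ephx1, Gpx2 and Me1, with 2 starts for Ephx1, and Ptgr1 and Prdx6 had none in the table used. The core letters of the antioxidant response element, TGACNNNGC, were searched on both strands, and the capitals mark each match. The windows with a match lie at chr13:95263068-95263367 for the second start of Ephx1, chr6:101229984-101230283 for Gpx2 and chr8:96540195-96540494 for Me1, all 3 on the minus strand.
Ephx1 promoter, second start: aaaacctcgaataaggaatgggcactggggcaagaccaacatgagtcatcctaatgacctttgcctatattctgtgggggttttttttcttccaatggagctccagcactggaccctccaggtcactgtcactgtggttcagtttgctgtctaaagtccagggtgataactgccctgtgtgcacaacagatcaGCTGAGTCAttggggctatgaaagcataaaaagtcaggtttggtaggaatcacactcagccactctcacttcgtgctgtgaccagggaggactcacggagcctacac
Gpx2 promoter: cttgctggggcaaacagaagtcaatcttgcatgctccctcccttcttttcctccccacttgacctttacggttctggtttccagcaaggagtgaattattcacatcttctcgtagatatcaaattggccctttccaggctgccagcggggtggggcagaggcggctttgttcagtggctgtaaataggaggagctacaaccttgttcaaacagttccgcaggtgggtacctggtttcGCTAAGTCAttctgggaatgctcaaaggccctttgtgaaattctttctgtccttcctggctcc
Me1 promoter: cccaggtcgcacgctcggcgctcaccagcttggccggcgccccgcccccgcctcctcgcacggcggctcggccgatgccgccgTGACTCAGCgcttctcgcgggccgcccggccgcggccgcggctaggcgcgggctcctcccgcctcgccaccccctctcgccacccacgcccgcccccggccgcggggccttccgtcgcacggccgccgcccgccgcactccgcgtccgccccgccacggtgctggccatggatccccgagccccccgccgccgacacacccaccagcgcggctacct

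The match in Ephx1 began at base -57 and read TGACTCAGC on the reverse strand, that in Gpx2 began at base -13 and read TGACTTAGC on the reverse strand, and that in Me1 began at base -167 and read TGACTCAGC on the strand of the gene. The letters TGACTCAGC also hold TGACTCA, the core bound by AP-1, which stood once more in the Ephx1 window at base -209. The xenobiotic response core bound by the aryl hydrocarbon receptor, GCGTG on either strand, stood at base -10 of Nqo1, base -57 of Akr7a3 and bases -241 and -83 of Me1. Among 33469 RefSeq promoter windows of this length, 12.1% held TGACNNNGC, 29.7% held GCGTG and 4.63% held TGACTCA. A match describes these letters and not a bound site, and a window without one says only that the letters are not in it.

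Ratios were scaled within each array by loess, a curve fitted to the dye ratio along brightness, and one alternative was to centre each array on its median. All 24 arrays were fitted together with limma, with 1 mean for each compound. A gene is called changed where its Benjamini-Hochberg adjusted p over all 12079 genes was under 0.05 and its mean differed at least 2-fold, a log2 difference of 1. Every slide held 1 compound, so that effects of slide cannot be told apart from those of compound. Per array, 62.9 to 74.6% of probes were above background for treated RNA, and 66.7 to 79.5% were for vehicle RNA. The probes that represent the 7 genes lay above background in both channels on all 24 arrays, and none of their spots was saturated. All 8 hepatocyte markers measured, such as albumin, lay above background on all 24 arrays too. In bulk tissue, fewer cells of a type and less RNA per cell cannot be told apart.

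1,2-Dichlorobenzene raised 6 of the 7 genes by at least 2-fold, all but Prdx6, in a comparison in which 0.745% of all genes were called higher. 1,2,3-Trichloropropane raised 4, Nqo1, Akr7a3, Ptgr1 and Gpx2, where 0.281% of all genes were called higher. 1-Amino-2-methylanthraquinone also raised 4, Nqo1, Akr7a3, Ephx1 and Gpx2, where 1.20% of all genes were called higher. Hexachloroethane raised 3, Nqo1, Gpx2 and Me1, where the share of all genes was 0.455%, and monuron raised 3, Nqo1, Akr7a3 and Gpx2, where it was 0.704%. Tetracycline hydrochloride raised 0 of 7 by limma, where 0.149% of all genes were called higher, although 3 of the 7 were higher at an unadjusted p under 0.05. None of the 7 was called lower under any compound, where the shares of all genes called lower were 0.406% for hexachloroethane, 0.613% for 1,2,3-trichloropropane, 0.836% for 1-amino-2-methylanthraquinone, 0.637% for monuron, 0.795% for 1,2-dichlorobenzene and 0.124% for tetracycline hydrochloride. By the adjusted p alone, 7 of 7 were higher under 1,2-dichlorobenzene (24.5% of all genes) and under 1-amino-2-methylanthraquinone (27.0%), 6 of 7 under 1,2,3-trichloropropane (20.5%), monuron (19.4%) and hexachloroethane (18.2%), and 3 of 7 under tetracycline hydrochloride (15.3%). The shares of all genes that were lower by the adjusted p alone were 25.0% under 1,2,3-trichloropropane, where Prdx6 was among them, and 26.6% under 1,2-dichlorobenzene, 30.6% under 1-amino-2-methylanthraquinone, 26.2% under monuron, 24.2% under hexachloroethane and 21.7% under tetracycline hydrochloride, where none of the 7 was.

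The median ratio of the 7 genes was 2.39 log2 under 1,2-dichlorobenzene, 1.15 under 1-amino-2-methylanthraquinone and 1.03 under 1,2,3-trichloropropane, beside medians of all genes of -0.01 under the first and -0.02 under the other two. It was 0.93 under monuron, 0.88 under hexachloroethane and 0.14 under tetracycline hydrochloride, beside -0.02 for all genes in each. The 7 genes thus differed by compound both in how many passed and in which. Nqo1 and Gpx2 were called under the same 5 compounds, Akr7a3 under 4 of them, and Ptgr1, Ephx1 and Me1 under 2 each.

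**Figure D1:**
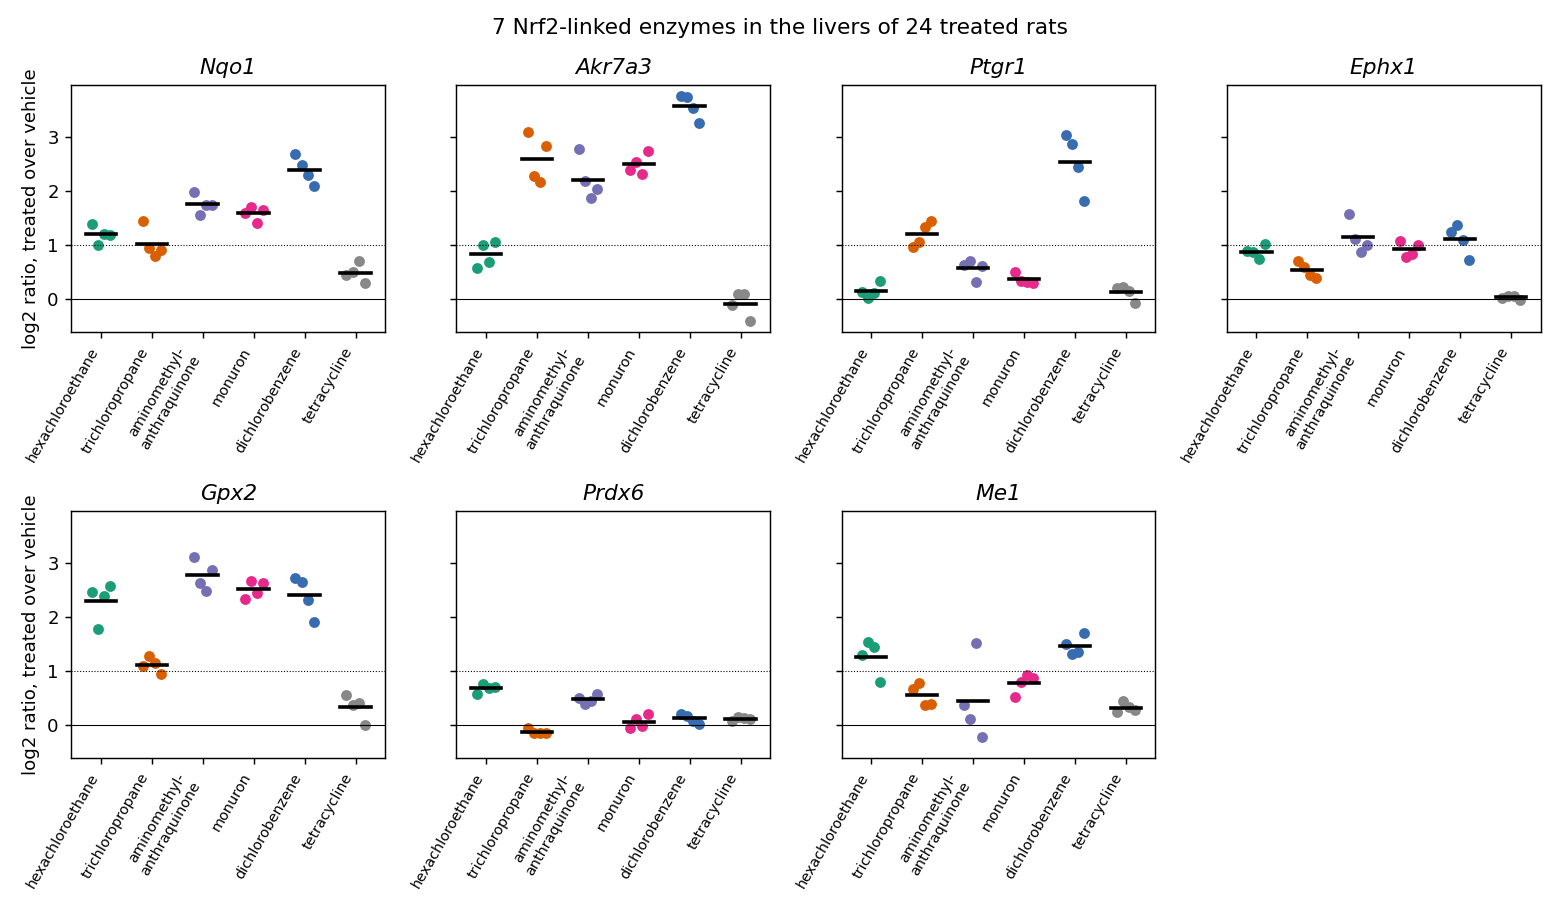
Log2 ratio of treated over vehicle (vertical axes) for each of the 7 genes in each of 24 rats (points), by compound, with the compound mean as a bar and a dotted line at 1, which is 2-fold. Monuron is 3-(4-chlorophenyl)-1,1-dimethylurea, and the other short names are those of the remaining compounds. For Akr7a3 the 1,2-dichlorobenzene rats lie between 3.26 and 3.76 and the tetracycline hydrochloride rats between -0.41 and 0.10.

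Nqo1 encodes a quinone reductase that passes 2 electrons at once and so avoids semiquinone radicals. Under 1,2-dichlorobenzene the 4 rats had Nqo1 ratios of 2.69, 2.48, 2.30 and 2.10 log2. Under 1-amino-2-methylanthraquinone they had 1.99, 1.57, 1.74 and 1.74. The rats given 1,2-dichlorobenzene lay above every rat of the other 5 compounds. Monuron gave 1.60, 1.72, 1.41 and 1.66, hexachloroethane 1.40, 1.01, 1.21 and 1.18, and 1,2,3-trichloropropane 1.45, 0.96, 0.80 and 0.92. Tetracycline hydrochloride gave 0.44, 0.50, 0.71 and 0.31, below every rat of the other 5 compounds though above 0 in all 4 rats.

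Nqo1 therefore rose 5.25-fold under 1,2-dichlorobenzene (mean 2.39 ± 0.25 log2, SD, n = 4; limma adjusted p = 9.88e-14). It rose 3.38-fold under 1-amino-2-methylanthraquinone (1.76 ± 0.17; limma adjusted p = 5.96e-12) and 3.02-fold under monuron (1.60 ± 0.13; limma adjusted p = 1e-10). The increases under hexachloroethane, 2.30-fold, and 1,2,3-trichloropropane, 2.04-fold, were the smallest called. Under median centring Nqo1 lay below 2-fold under both, at 0.63 under hexachloroethane and 0.53 under 1,2,3-trichloropropane, and its increase under 1-amino-2-methylanthraquinone was 1.10. The call under 1,2,3-trichloropropane also ended without rat 1, at 0.89, and without background subtraction, at 0.91. Under tetracycline hydrochloride the mean of 0.49 ± 0.17 passed the adjusted p (limma, 0.00042) at 1.40-fold, short of the fold required, and with median centring it was 0.10 and did not pass (limma adjusted p = 0.483).

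In the order of Nqo1, 3 of the 5 steps between neighbours passed an adjusted p of 0.05. 1,2-Dichlorobenzene stood 0.63 above 1-amino-2-methylanthraquinone (limma adjusted p = 0.000683), monuron 0.40 above hexachloroethane (0.0391) and 1,2,3-trichloropropane 0.54 above tetracycline hydrochloride (0.00438). The steps of 0.16 between 1-amino-2-methylanthraquinone and monuron and of 0.17 between hexachloroethane and 1,2,3-trichloropropane did not pass.

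Akr7a3 encodes an aldo-keto reductase that reduces the dialdehyde of aflatoxin B1 and related aldehydes, and it had the highest ratio reached by any of the 7 genes. The 4 rats given 1,2-dichlorobenzene had Akr7a3 ratios of 3.76, 3.74, 3.55 and 3.26 log2. Those given 1,2,3-trichloropropane had 3.10, 2.29, 2.17 and 2.84, those given monuron 2.39, 2.55, 2.32 and 2.75, and those given 1-amino-2-methylanthraquinone 2.78, 2.18, 1.88 and 2.03. These 3 sets of rats overlapped one another and lay below the 1,2-dichlorobenzene rats. Hexachloroethane gave 0.58, 1.00, 0.69 and 1.06, and tetracycline hydrochloride -0.10, 0.10, 0.09 and -0.41, neither overlapping any other compound.

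Akr7a3 rose 12.0-fold under 1,2-dichlorobenzene (mean 3.58 ± 0.23 log2, SD, n = 4; limma adjusted p = 9.88e-14). It rose 6.07-fold under 1,2,3-trichloropropane (2.60 ± 0.44; limma adjusted p = 5.2e-11), 5.67-fold under monuron (2.50 ± 0.19) and 4.65-fold under 1-amino-2-methylanthraquinone (2.22 ± 0.39). Under median centring the increases were smaller by over 1.5 times, at 2.84 log2 under 1,2-dichlorobenzene, 1.88 under 1,2,3-trichloropropane, 1.79 under monuron and 1.29 under 1-amino-2-methylanthraquinone, and all 4 were still called. Under hexachloroethane it averaged 0.83 ± 0.23, which passed the adjusted p (limma, 8.16e-05) at 1.78-fold, short of 2-fold, and with median centring it was 0.04 and did not pass (limma adjusted p = 0.808). Under tetracycline hydrochloride the mean of -0.08 ± 0.24 did not pass (limma adjusted p = 0.696), and with median centring it was -0.55 (limma adjusted p = 0.00188). 1-Amino-2-methylanthraquinone stood 1.39 above hexachloroethane (limma adjusted p = 1.6e-05). 1,2-Dichlorobenzene stood 0.98 above 1,2,3-trichloropropane (limma adjusted p = 0.00312) and hexachloroethane 0.91 above tetracycline hydrochloride (0.00368). The middle steps of 0.10, from 1,2,3-trichloropropane to monuron, and 0.29, from monuron to 1-amino-2-methylanthraquinone, did not pass.

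Ptgr1 encodes prostaglandin reductase 1, which inactivates leukotriene B4 and reduces unsaturated aldehydes and ketones. Under 1,2-dichlorobenzene the 4 rats had Ptgr1 ratios of 3.04, 2.88, 2.45 and 1.82 log2, and under 1,2,3-trichloropropane 0.96, 1.06, 1.33 and 1.45. These 2 compounds overlapped neither each other nor any of the rest. The ratios were 0.64, 0.71, 0.33 and 0.62 under 1-amino-2-methylanthraquinone, 0.50, 0.34, 0.32 and 0.31 under monuron, 0.13, 0.03, 0.12 and 0.34 under hexachloroethane, and 0.21, 0.23, 0.16 and -0.06 under tetracycline hydrochloride.

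Ptgr1 rose 5.85-fold under 1,2-dichlorobenzene (mean 2.55 ± 0.54 log2, SD, n = 4; limma adjusted p = 2.7e-12) and 2.30-fold under 1,2,3-trichloropropane (1.20 ± 0.23; limma adjusted p = 2.12e-07). It was not called under the other 4 compounds. In the order, 1,2-dichlorobenzene stood 1.35 above 1,2,3-trichloropropane (limma adjusted p = 0.000107) and 1,2,3-trichloropropane 0.63 above 1-amino-2-methylanthraquinone (0.00627), while the 3 lower steps, of 0.21, 0.21 and 0.02, did not pass. Under median centring, Ptgr1 stayed above 0 under 1,2-dichlorobenzene (1.96) and 1,2,3-trichloropropane (0.59, no longer 2-fold) and lay below 0 under the other 4.

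Ephx1 encodes microsomal epoxide hydrolase, which turns epoxides of drugs and aromatic compounds into diols, and its probe was among the brightest, at percentile 99.7 of brightness among the genes tested. The rats given 1-amino-2-methylanthraquinone had Ephx1 ratios of 1.58, 1.12, 0.88 and 1.01 log2, and those given 1,2-dichlorobenzene 1.25, 1.38, 1.10 and 0.73. Monuron gave 1.09, 0.79, 0.84 and 1.01, and hexachloroethane 0.89, 0.88, 0.74 and 1.02. These 4 compounds overlapped. 1,2,3-Trichloropropane gave 0.72, 0.59, 0.44 and 0.40, below them all, and tetracycline hydrochloride 0.02, 0.06, 0.06 and -0.01, lower still.

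Ephx1 rose 2.21-fold under 1-amino-2-methylanthraquinone (mean 1.15 ± 0.31 log2, SD, n = 4; limma adjusted p = 1.95e-09) and 2.17-fold under 1,2-dichlorobenzene (1.12 ± 0.28; limma adjusted p = 3.73e-09). Monuron at 1.91-fold and hexachloroethane at 1.84-fold passed the adjusted p and fell short of 2-fold. With the log ratios of the scanner software both crossed it, at 1.19 under monuron and 1.08 under hexachloroethane, and without rat 1 the mean under 1-amino-2-methylanthraquinone lay just under it. Monuron and hexachloroethane also crossed it in the series table, at 1.18 and 1.06. With the mean of all probes, monuron was called at 1.01 and hexachloroethane stayed short at 0.91. A dimmer Ephx1 probe of another sequence gave 1.20 under monuron and 1.00, just short of 2-fold, under hexachloroethane. That probe gave 1.47 under 1-amino-2-methylanthraquinone, 1.36 under 1,2-dichlorobenzene, 0.81 under 1,2,3-trichloropropane and 0.08 under tetracycline hydrochloride. Under median centring, Ephx1 stayed above 0 only under 1,2-dichlorobenzene, at 0.21 and no longer called, and turned negative under the other 5, from -0.11 under monuron to -0.73 under tetracycline hydrochloride. The 3 upper steps in its order, of 0.03, 0.19 and 0.05, did not pass. Hexachloroethane stood 0.34 above 1,2,3-trichloropropane (limma adjusted p = 0.0461) and 1,2,3-trichloropropane 0.51 above tetracycline hydrochloride (0.00553).

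Gpx2 encodes a glutathione peroxidase best known from the lining of the gut, and its probe was the dimmest of the 7, at percentile 48.2 of brightness among the genes tested. The rats given 1-amino-2-methylanthraquinone had Gpx2 ratios of 3.12, 2.63, 2.49 and 2.87 log2, those given monuron 2.34, 2.68, 2.44 and 2.63, and those given 1,2-dichlorobenzene 2.72, 2.66, 2.32 and 1.91. Hexachloroethane gave 2.46, 1.78, 2.38 and 2.58, and these 4 compounds overlapped. 1,2,3-Trichloropropane gave 1.10, 1.27, 1.16 and 0.95, and tetracycline hydrochloride 0.55, 0.37, 0.41 and -0.01, neither overlapping any other compound.

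Gpx2 rose 6.86-fold under 1-amino-2-methylanthraquinone (mean 2.78 ± 0.28 log2, SD, n = 4; limma adjusted p = 5.56e-13), 5.75-fold under monuron (2.52 ± 0.16) and 5.29-fold under 1,2-dichlorobenzene (2.40 ± 0.37). It rose 4.92-fold under hexachloroethane (2.30 ± 0.36; limma adjusted p = 2.11e-11) and 2.17-fold under 1,2,3-trichloropropane (1.12 ± 0.13; limma adjusted p = 7.19e-07). Under tetracycline hydrochloride the mean was 0.33 ± 0.24 (limma adjusted p = 0.0448), at 1.26-fold. Gpx2 there did not pass without background subtraction (0.15, limma adjusted p = 0.332), with the mean of all probes (0.12, 0.311) or without the filter on dim probes (0.0509). Gpx2 there passed with median centring (0.39, limma adjusted p = 0.0130), the scanner log ratio (0.53, 0.000876) and the series table (0.53, 0.00107). The 3 upper steps in its order, of 0.26, 0.12 and 0.10, did not pass, whereas hexachloroethane stood 1.18 above 1,2,3-trichloropropane (limma adjusted p = 4.35e-05) and 1,2,3-trichloropropane 0.79 above tetracycline hydrochloride (0.00219).

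The dimmer Gpx2 probe shown above gave compound means of only 0.41 under 1-amino-2-methylanthraquinone, 0.31 under hexachloroethane, 0.28 under monuron, 0.24 under 1,2-dichlorobenzene, 0.10 under 1,2,3-trichloropropane and -0.08 under tetracycline hydrochloride. It lay above background on 15 arrays in the treated channel and 14 in the vehicle channel, at a mean log2 signal of 6.82, against 9.20 for the brighter probe. The probes of each of the other 6 genes stayed within 0.34 log2 of one another under every compound. These probes were not all independent readings. Nqo1, Akr7a3, Ephx1 and Me1 each had a pair of identical sequence, and the Prdx6 probes shared 58 bases. The probes of Ptgr1, which differ in sequence, gave 0.57 and 0.27 under 1-amino-2-methylanthraquinone. With the mean of all probes, Gpx2 averaged 1.59 under 1-amino-2-methylanthraquinone, 1.40 under monuron, 1.32 under 1,2-dichlorobenzene and 1.30 under hexachloroethane, all still called. Under 1,2,3-trichloropropane that mean was 0.61 and was no longer called, and without background subtraction Gpx2 there averaged 0.56 and was not called either. Without background subtraction it averaged 2.12 under 1-amino-2-methylanthraquinone, 1.91 under monuron and 1.78 under 1,2-dichlorobenzene.

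Prdx6 encodes a peroxiredoxin that reduces peroxides of phospholipids, and it differed by less than 2-fold under every compound. The 4 rats given hexachloroethane had Prdx6 ratios of 0.58, 0.76, 0.69 and 0.71 log2, and those given 1-amino-2-methylanthraquinone 0.51, 0.38, 0.45 and 0.58, so that all 8 lay above the rats of the other 4 compounds. The ratios were 0.21, 0.17, 0.08 and 0.03 under 1,2-dichlorobenzene, 0.08, 0.15, 0.13 and 0.11 under tetracycline hydrochloride, -0.06, 0.10, -0.01 and 0.20 under monuron, and -0.06, -0.15, -0.14 and -0.14 under 1,2,3-trichloropropane. Rat 1 given 1,2,3-trichloropropane lay level with the lowest monuron rat, and the other 3 below every rat of the other 5 compounds. The SD over the rats of a compound was smaller for Prdx6 than for any of the other 6 genes under 5 of the 6 compounds, all but monuron, where that of Ptgr1 was smaller (0.09, against 0.12 for Prdx6).

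Prdx6 averaged 0.68 ± 0.07 under hexachloroethane, which is 1.61-fold (SD, n = 4; limma adjusted p = 4.8e-11), and 0.48 ± 0.08 under 1-amino-2-methylanthraquinone, 1.39-fold (limma adjusted p = 3.09e-09). Under 1,2,3-trichloropropane it averaged -0.12 ± 0.05 (limma adjusted p = 0.0157). In the order, hexachloroethane stood 0.21 above 1-amino-2-methylanthraquinone (limma adjusted p = 0.00639), 1-amino-2-methylanthraquinone 0.36 above 1,2-dichlorobenzene (3.29e-05) and monuron 0.18 above 1,2,3-trichloropropane (0.023), while the steps of 0.01 and 0.06 among 1,2-dichlorobenzene, tetracycline hydrochloride and monuron did not pass. Under median centring the Prdx6 ratio was negative under all 6 compounds, from -0.20 under hexachloroethane to -0.88 under 1,2,3-trichloropropane, so the direction against vehicle depends on the scaling.

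Me1 encodes cytosolic malic enzyme, which yields NADPH and is also a lipogenic gene. The rats given 1,2-dichlorobenzene had Me1 ratios of 1.51, 1.32, 1.36 and 1.70 log2, and those given hexachloroethane 1.30, 1.54, 1.44 and 0.79. Rat 4 under hexachloroethane lay within the range of monuron, which gave 0.53, 0.79, 0.92 and 0.88. 1,2,3-Trichloropropane gave 0.67, 0.78, 0.37 and 0.39, and tetracycline hydrochloride 0.23, 0.44, 0.34 and 0.28. Under 1-amino-2-methylanthraquinone the rats split, with 1.52 in rat 3 against 0.37, 0.11 and -0.21 in the others.

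Me1 rose 2.77-fold under 1,2-dichlorobenzene (mean 1.47 ± 0.17 log2, SD, n = 4; limma adjusted p = 3.84e-07) and 2.41-fold under hexachloroethane (1.27 ± 0.33; limma adjusted p = 4.51e-06). Monuron at 0.78 ± 0.18 passed the adjusted p (limma, 0.000857) without reaching 2-fold, and with median centring it was 0.28 and did not pass (limma adjusted p = 0.132). 1,2,3-Trichloropropane at 0.56 ± 0.20 passed too (limma adjusted p = 0.011), and with median centring it was 0.03 and did not (0.893). The mean of 0.44 under 1-amino-2-methylanthraquinone had a limma adjusted p of 0.0298 and rested on rat 3, without which it was 0.09 (limma adjusted p = 0.563). None of the 5 steps in the order of Me1 passed, the largest being 0.49 between hexachloroethane and monuron (limma adjusted p = 0.147). Under median centring the Me1 ratio turned negative under 1-amino-2-methylanthraquinone (-0.19) and tetracycline hydrochloride (-0.09), and the increase under hexachloroethane was 0.64, no longer called.

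Over the 15 pairs of compounds and 7 genes, 73 of 105 differences passed an adjusted p of 0.05, in comparisons in which between 12.2 and 44.3% of all genes did. Of all genes, 44.3% passed between 1-amino-2-methylanthraquinone and 1,2-dichlorobenzene, 42.0% between it and tetracycline hydrochloride, 42.8% between it and 1,2,3-trichloropropane, 39.7% between it and hexachloroethane and 39.4% between it and monuron. The shares for tetracycline hydrochloride were 36.2% with 1,2-dichlorobenzene, 32.9% with 1,2,3-trichloropropane, 23.6% with monuron and 16.5% with hexachloroethane. Hexachloroethane gave 34.0% with 1,2,3-trichloropropane, 30.4% with 1,2-dichlorobenzene and 22.8% with monuron, monuron gave 24.2% with 1,2,3-trichloropropane and 22.9% with 1,2-dichlorobenzene, and 1,2,3-trichloropropane and 1,2-dichlorobenzene 12.2%. Nqo1 passed in 13 of 15 pairs, Akr7a3 and Prdx6 in 12, Ptgr1 and Gpx2 in 10, Ephx1 in 9 and Me1 in 7. The doses differed between all compounds, so these differences compare the compounds as given and not at a matched dose.

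The contrast of each compound with the mean of the other 5 removes dye effects common to the arrays, but not differences between their vehicle channels. 1,2-Dichlorobenzene stood above the other 5 in 3 genes at 2-fold or more, Ptgr1, Akr7a3 and Nqo1, where 0.281% of all genes were called higher and 0.232% lower. Tetracycline hydrochloride stood below in 3, Akr7a3, Gpx2 and Nqo1, where 0.306% of all genes were called lower and 0.240% higher. 1-Amino-2-methylanthraquinone stood above in Gpx2 alone, where 0.878% of all genes were called higher and 0.356% lower, and hexachloroethane below in Akr7a3 alone, where 0.281% of all genes were called lower and 0.331% higher. For 1,2,3-trichloropropane limma called 0 of 7 in either direction, where 0.141% of all genes were called higher and 0.257% lower. For monuron limma also called 0 of 7, where 0.397% of all genes were called higher and 0.190% lower. At an unadjusted p under 0.05, 2 of the 7 genes were higher and 4 lower under 1,2,3-trichloropropane, and 3 higher and 2 lower under monuron. The share of all genes at an unadjusted p is not given for this contrast. The shares above also required the adjusted p and 2-fold, so these counts cannot be set against them.

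Under 1,2-dichlorobenzene Ptgr1 averaged 2.55, against 0.49 over the other 5 compounds, a difference of 2.06 (limma adjusted p = 2.53e-09). Akr7a3 averaged 3.58 under 1,2-dichlorobenzene and 1.61 over the other 5 compounds, a difference of 1.96 (limma adjusted p = 1.77e-08). Nqo1 averaged 2.39 under 1,2-dichlorobenzene and 1.22 over the other 5 compounds, a difference of 1.18 (limma adjusted p = 7.19e-08). These are the 3 reductases, and all of them kept a difference of at least 2-fold under every other processing tried.

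Under tetracycline hydrochloride Akr7a3 averaged -0.08, against 2.35 over the other 5 compounds, a difference of -2.43 (limma adjusted p = 2.02e-09). Gpx2 averaged 0.33 under tetracycline hydrochloride and 2.22 over the other 5 compounds, a difference of -1.89 (limma adjusted p = 1.43e-08). Nqo1 averaged 0.49 under tetracycline hydrochloride and 1.60 over the other 5 compounds, a difference of -1.11 (limma adjusted p = 3.06e-07). Median centring brought the Nqo1 difference to -0.98, just short of 2-fold. Tetracycline hydrochloride was also the only compound given in water and had a vehicle pool of its own, and the part of the vehicle in these differences was not tested.

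Gpx2 under 1-amino-2-methylanthraquinone averaged 2.78, against 1.74 over the other 5 compounds, a difference of 1.04 (limma adjusted p = 3.45e-06). This call lay at the 2-fold limit: without rat 1 the difference was 0.93, and under 5 of the other ways of processing it lay between 0.64 and 1.00 and was not called. Akr7a3 under hexachloroethane averaged 0.83, against 2.16 over the other 5 compounds, a difference of -1.33 (limma adjusted p = 3.11e-06). Prdx6 under hexachloroethane averaged 0.68, against 0.13 over the other 5 compounds, and the difference of 0.55 passed the adjusted p (limma, 2.76e-08) below 2-fold.

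**Figure D2:**
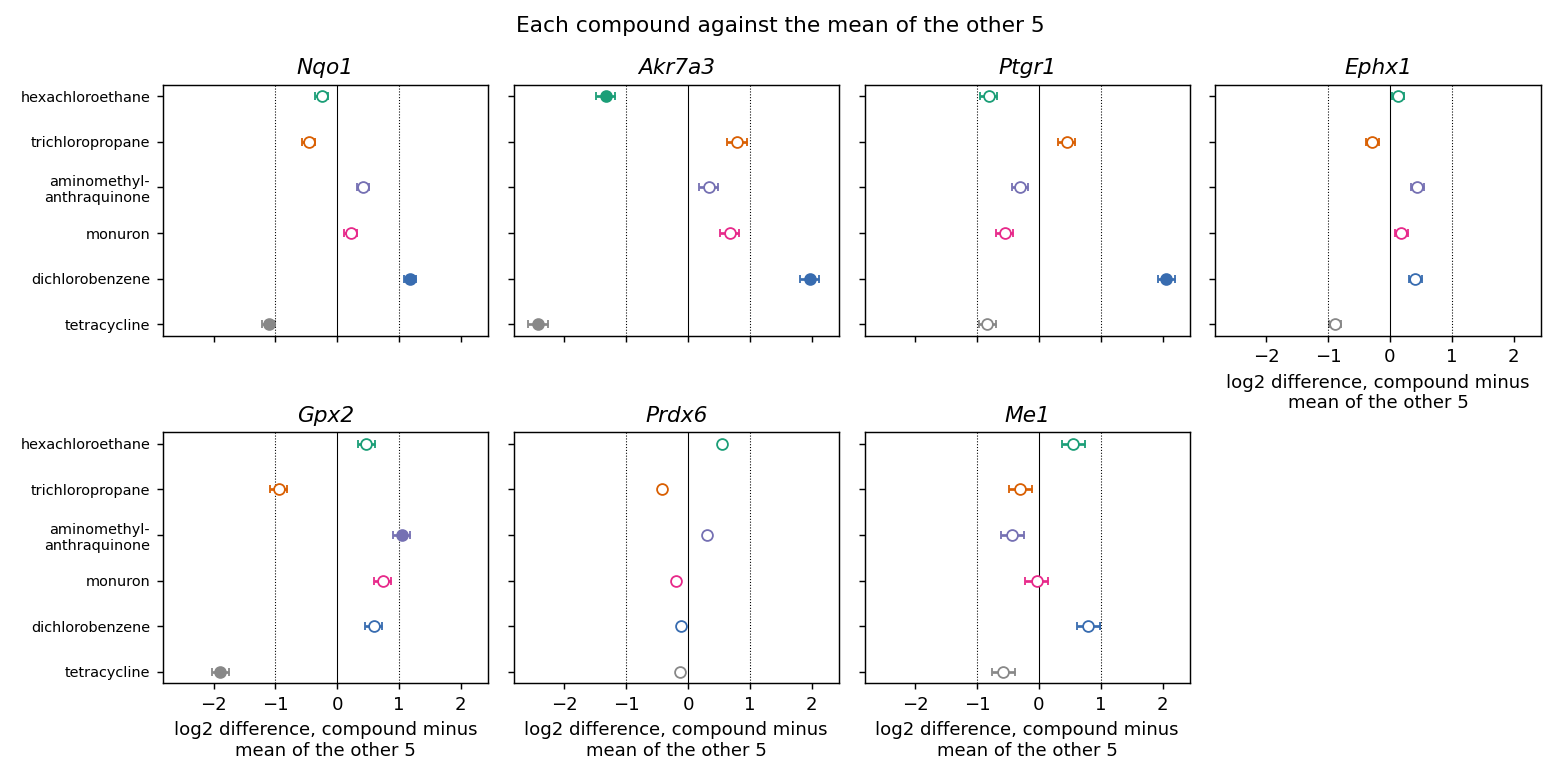
Difference in log2 ratio between each compound and the mean of the other 5 (horizontal axes), with its standard error, for each of the 7 genes; filled points passed an adjusted p of 0.05 and 2-fold. The filled points are those of 1,2-dichlorobenzene in the 3 reductases, tetracycline hydrochloride in Akr7a3, Gpx2 and Nqo1, 1-amino-2-methylanthraquinone in Gpx2 and hexachloroethane in Akr7a3.

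The arrays were scanned on 4 days, and 2 pairs of compounds shared a day. On day 1, hexachloroethane stood above tetracycline hydrochloride by 1.97 in Gpx2 (limma adjusted p = 2.61e-07), 0.94 in Me1 (0.00984), 0.91 in Akr7a3 (0.00368), 0.85 in Ephx1 (0.000158), 0.71 in Nqo1 (0.00112) and 0.57 in Prdx6 (8.48e-07). Ptgr1, at 0.02, did not pass (limma adjusted p = 0.959). On day 4, monuron stood below 1,2-dichlorobenzene in the 3 reductases, by -2.18 in Ptgr1 (limma adjusted p = 3.24e-08), -1.08 in Akr7a3 (0.000538) and -0.80 in Nqo1 (0.000213), and in Me1 by -0.69 (0.0406). Monuron and 1,2-dichlorobenzene did not differ past the threshold in Ephx1 (-0.19), Gpx2 (0.12) or Prdx6 (-0.06). Nqo1, Akr7a3 and Me1 thus differed between the compounds of both days. Of all genes, 16.5% passed in the pair of day 1 and 22.9% in that of day 4. The compounds of day 1 also differed in vehicle, corn oil against water, and each pair differed in slide.

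In the brightness of the separate dyes, the compound means spanned a wider range in the treated channel than in the vehicle channel for all 7 genes. For Akr7a3 the treated channel spanned 4.58 log2 and the vehicle channel 0.92, and for Ptgr1 2.61 and 0.41. For Nqo1 they spanned 2.06 and 0.37, for Me1 1.68 and 0.53, and for Ephx1 1.31 and 0.23. Gpx2 had the widest vehicle channel, 1.26 beside 3.31 in the treated channel. Its treated signal under 1,2,3-trichloropropane was 8.86, against 7.74 in vehicle, and under 1-amino-2-methylanthraquinone 11.29, against 8.51 in vehicle. Prdx6 spanned 0.65 in the treated channel and 0.37 in the vehicle channel: under hexachloroethane the treated signal was 15.64, against 14.95 in vehicle, and under 1,2,3-trichloropropane 15.12, against 15.24 in vehicle. The vehicle channel also differed between corn oil compounds of the same scan day. For Akr7a3 it was 13.48 ± 0.04 beside monuron and 14.24 ± 0.14 beside 1,2-dichlorobenzene (SD over 4 arrays). These arrays read pooled RNA, so this SD is no spread of rats, and the signals were scaled within each array.

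**Figure D3:**
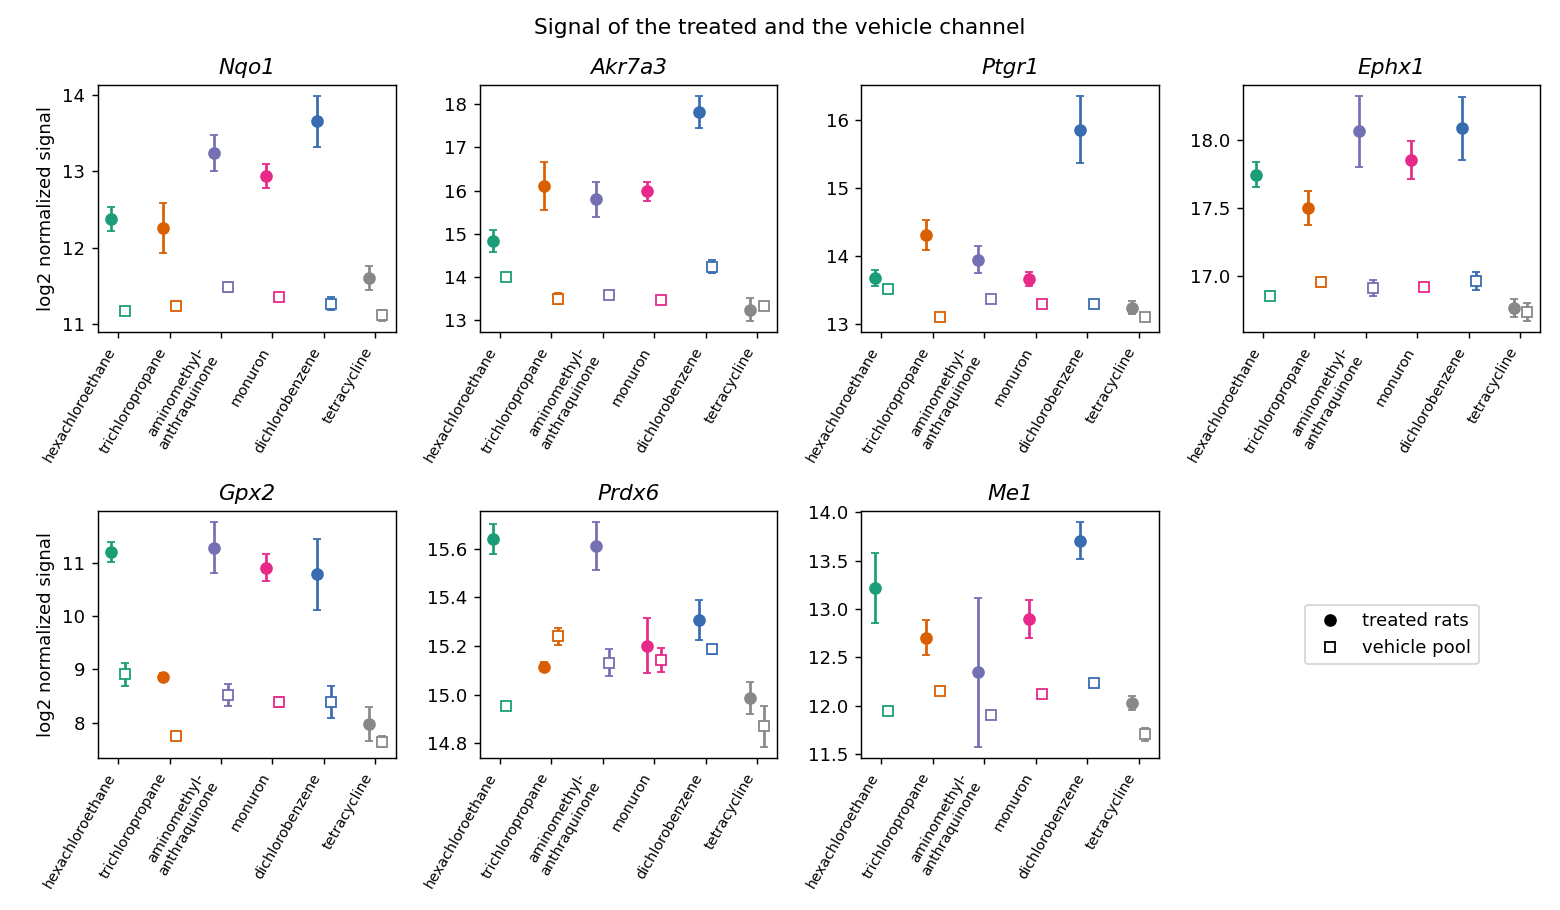
Mean normalized log2 signal of the treated channel and the vehicle channel (vertical axes) for each of the 7 genes by compound, with the SD over 4 arrays as bars. The treated channel moves more between compounds than the vehicle channel in every gene, by 4.58 against 0.92 log2 for Akr7a3.

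The comparison of the 4 carcinogens with the 2 non-carcinogens, the 2 classes that the design names, took compound as a random block, since rats of 1 compound are not independent samples of a class. By limma it called 0 of 12079 genes (0.00%), with 206 at an unadjusted p under 0.05, and all 7 genes described here had an adjusted p of 1.00. Gpx2 averaged 2.18 in the carcinogens and 1.37 in the non-carcinogens, a difference of 0.81 with a 95% interval of -0.05 to 1.68. Ptgr1 averaged 0.57 in the carcinogens and 1.34 in the non-carcinogens, a difference of -0.77 with an interval of -1.61 to 0.07. The intervals of the other 5 genes also held 0, with differences of 0.30 for Ephx1, 0.29 for Akr7a3, 0.16 for Prdx6, -0.04 for Nqo1 and -0.14 for Me1. For Nqo1, Akr7a3, Ptgr1 and Me1 the highest compound mean was that of 1,2-dichlorobenzene and the lowest that of tetracycline hydrochloride, the 2 non-carcinogens. The interval of Akr7a3, from -0.91 to 1.49, held differences of more than 2-fold. All these intervals used degrees of freedom counted over arrays and 1 correlation within compounds, 0.568, for all genes. With only 4 and 2 compounds in the classes, they can be too narrow. The 2 non-carcinogens alone lay 3.66 log2 apart in Akr7a3, further than its interval is wide.

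Deviations of single rats from the mean of their compound were compared between genes. Over the 24 arrays, they had a Pearson r between 0.257, for Ptgr1 and Prdx6, and 0.672 in all pairs of the 6 genes other than Me1. It was 0.672 between Akr7a3 and Ephx1, 0.617 between Ptgr1 and Gpx2, 0.613 between Nqo1 and Gpx2, 0.610 between Nqo1 and Akr7a3 and 0.583 between Ephx1 and Gpx2. Each pair of genes was read on the same arrays over the same vehicle channel, and these are descriptions with n = 24 arrays. Rat 4 given 1,2-dichlorobenzene carried much of the relation of Ptgr1 to 4 of these genes, since without it r was 0.013 with Prdx6, 0.024 with Nqo1 (0.306 with all rats), 0.218 with Ephx1 (0.523 with all rats) and 0.216 with Akr7a3 (0.351 with all rats). Without that rat r was also lower between Prdx6 and Ephx1, 0.168, and between Prdx6 and Gpx2, 0.223, against 0.313 and 0.347 with all rats. Without rat 1 given 1-amino-2-methylanthraquinone, r between Akr7a3 and Gpx2 was 0.237, against 0.365 with all rats. The values also moved up. Without rat 1 given 1,2,3-trichloropropane, Ptgr1 had r = 0.555 with Nqo1, 0.534 with Akr7a3 and 0.624 with Ephx1. Me1 had r between -0.475, with Ptgr1, and 0.031, with Nqo1. Under 1,2-dichlorobenzene rat 4 was the lowest of its group in 6 of the 7 genes and the highest in Me1, while rat 1 was the highest in 5. Under tetracycline hydrochloride rat 4 was the lowest in 5 of the 7 genes.

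Over all 24 ratios, which add the differences between compounds, Ephx1 and Gpx2 had r = 0.922, Nqo1 and Ephx1 0.853, and Nqo1 and Akr7a3 0.821, whereas Ptgr1 and Gpx2 had 0.225 and Akr7a3 and Prdx6 -0.312. Among 4774 named genes, the profile of Gpx2 was most like those of Samd7 (r = 0.987), Abcc3 (0.946) and Ephx1 (0.922). Samd7 averaged 2.84 under 1-amino-2-methylanthraquinone, 2.46 under monuron, 2.38 under 1,2-dichlorobenzene, 2.23 under hexachloroethane, 0.76 under 1,2,3-trichloropropane and 0.23 under tetracycline hydrochloride, the same order of compounds as Gpx2. Ephx1 was most like Gpx2, Samd7 (0.902) and Gsr (0.897), and Nqo1 like Vdac2 (0.901), Gsr (0.900) and Car2 (0.868).

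Akr7a3 was most like Pgrmc1 (r = 0.960), Slc25a39 (0.941) and mrpl9 (0.928), and Ptgr1 like Gstp1 (0.968), Ugt2b7 (0.955) and Mef2d (0.938). Gstp1, a glutathione transferase long used to mark altered liver foci in rats, averaged 4.64 under 1,2-dichlorobenzene and 2.14 under 1,2,3-trichloropropane and between -0.28 and 0.35 under the other 4, which are the compounds and the order in which Ptgr1 was called. Prdx6 was most like Keap1 (0.916), Psmd8 (0.884) and Spcs1 (0.883). Me1 was most like Pgd (0.850), which encodes a dehydrogenase of the pentose phosphate pathway, Mgll (0.846) and Ndufab1 (0.835). All these values of r are over 24 arrays that share a vehicle channel within each array, and are given as descriptions.

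Me1, a lipogenic gene itself, was set beside the other lipogenic genes rat by rat. Under 1-amino-2-methylanthraquinone the median ratio of the 8 lipogenic genes measured was -1.37, -0.73, 0.45 and -1.26 in rats 1 to 4, so rat 3, the rat with Me1 at 1.52, was the only one above 0. Fasn, fatty acid synthase, had -1.46, -1.33, 0.34 and -1.82 and fell under this compound (mean -1.07 ± 0.96, SD, n = 4; limma adjusted p = 0.00751), the only one of the 8 genes called under any compound. Acly, which makes cytosolic acetyl-CoA, had -1.45, -0.99, 0.56 and -1.53, and Elovl6, which lengthens fatty acids, -0.31, -0.61, 1.60 and -1.25. Over all 24 rats the deviations of Me1 and of the lipogenic median from their compound means had r = 0.740. This value rested in part on rat 3 given 1-amino-2-methylanthraquinone, without which r was 0.452. Higher Me1 did not go with a higher lipogenic median over the 4 rats given monuron, the 4 given tetracycline hydrochloride or the other 3 given 1-amino-2-methylanthraquinone.

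**Figure D4:**
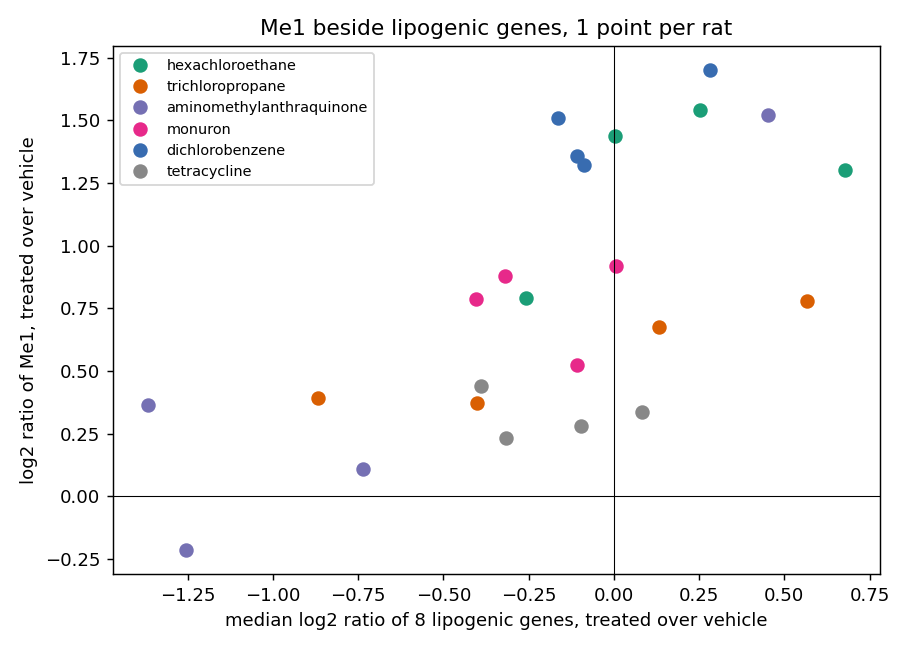
Me1 log2 ratio (vertical axis) against the median log2 ratio of 8 lipogenic genes (horizontal axis) in each of 24 rats (points), by compound. Rat 3 given 1-amino-2-methylanthraquinone lies at 0.45 and 1.52, apart from the other 3 rats of its group, whose lipogenic medians run from -1.37 to -0.73.

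The other genes of the Nrf2 pathway were read from lists named by function. Of 5 genes of the Nrf2 machinery limma called 0 under any compound, with 1 to 4 of them per compound at an unadjusted p under 0.05. Keap1 averaged 0.45 ± 0.06 under hexachloroethane (SD, n = 4), and Nfe2l2, which encodes Nrf2, reached 0.54 ± 0.39 under 1,2,3-trichloropropane. Of 5 genes of glutathione supply, Gsr, glutathione reductase, rose under 1,2-dichlorobenzene (1.01 ± 0.20) and Ggt1 under 1-amino-2-methylanthraquinone (1.16 ± 0.16), while Gclm, the modifier of glutathione synthesis, had its highest mean, 0.78 ± 0.38, under 1,2-dichlorobenzene. Of 4 thioredoxin genes limma called 0, with 1 to 3 per compound at an unadjusted p under 0.05, and of 5 NADPH genes other than Me1 it called 0, with 0 to 4 per compound at an unadjusted p under 0.05. Even by the adjusted p alone, 15.3 to 27.0% of all genes were higher per compound and 21.7 to 30.6% lower. Such unadjusted counts were thus common among all genes. Hmox1, the haem oxygenase, reached 0.94 ± 0.40 under monuron, below 2-fold.

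Among 11 glutathione transferases, between 1 and 2 rose under each compound. Gsta3, named Yc2 on the array, rose under all 6, with means of 2.38 under hexachloroethane, 4.58 under 1,2,3-trichloropropane, 4.22 under 1-amino-2-methylanthraquinone, 5.25 under monuron, 4.99 under 1,2-dichlorobenzene and 1.54 under tetracycline hydrochloride. Gstp1 was the second gene under 1,2-dichlorobenzene (4.64 ± 0.39) and 1,2,3-trichloropropane (2.14 ± 0.59). Of 6 other reductases Akr1b8 rose under 1,2-dichlorobenzene (2.38 ± 1.39), in rats that ran from 0.86 to 3.89. Of 11 other peroxidases, catalase and dismutases limma called 0, with list medians between -0.09 and 0.02. At an unadjusted p under 0.05, 5 to 9 of them per compound differed, either way. By the adjusted p alone, 15.3 to 27.0% of all genes were higher per compound and 21.7 to 30.6% lower. At an unadjusted p these shares are at least as large. Of 7 genes of conjugation and export, Abcc3, which exports glucuronides, rose under hexachloroethane (1.32), 1-amino-2-methylanthraquinone (1.35), monuron (1.15) and 1,2-dichlorobenzene (1.26), the 4 compounds under which Gpx2 exceeded 4-fold, and Ugt1a6 rose under 1,2-dichlorobenzene (1.00 ± 0.18).

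Targets of other receptors that act on these genes were read beside them. Of 4 targets of the aryl hydrocarbon receptor, Cyp1a1 rose under hexachloroethane, Cyp1a1 and Cyp1a2 under 1-amino-2-methylanthraquinone and monuron, and Cyp1a1 and Ugt1a6 under 1,2-dichlorobenzene, where Cyp1a2 fell. Cyp1a1, its best-known target, averaged 5.01 under 1-amino-2-methylanthraquinone, 2.77 under monuron, 2.75 under hexachloroethane, 1.91 under 1,2-dichlorobenzene, 0.52 under 1,2,3-trichloropropane and 0.01 under tetracycline hydrochloride, with its vehicle channel above background on 17 of 24 arrays. Of 11 CAR and PXR targets, 4 rose under hexachloroethane, 3 under monuron, 2 under 1,2-dichlorobenzene and 1 under each of the others. Ces2c, a carboxylesterase, averaged 2.65 and Ugt2b1, a glucuronosyltransferase, 2.43 under hexachloroethane, and Cyp3a9 fell under 1-amino-2-methylanthraquinone (-3.91), 1,2-dichlorobenzene (-3.26), 1,2,3-trichloropropane (-2.08) and monuron (-1.70). Their part in the values of the 7 genes was not tested.

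Markers of other liver cells moved under some compounds. Of 4 bile duct markers measured, 3 rose under 1-amino-2-methylanthraquinone, Epcam (2.11), Spp1 (1.72) and Krt19 (1.47), with list medians of 1.38 to 1.72 in its 4 rats, against list medians between -0.15 and 0.15 under the other 5 compounds. Under monuron 3 of 4 markers of red cell precursors rose, Hbb (1.64), Alas2 (1.13) and Ahsp (1.05), with list medians of 0.95 to 1.28 in its 4 rats, and the Kupffer cell marker Marco rose (1.07), the only one of 6. The medians of the 8 hepatocyte markers lay between -0.27 and -0.63, and Serpina1 fell under 1,2-dichlorobenzene (-1.10) and 1,2,3-trichloropropane (-1.06). The part of cell makeup in the values of the 7 genes was not tested.

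The choice of scaling moved bright genes more than dim ones. With median centring the brightest 1208 genes had medians between -0.96 under 1-amino-2-methylanthraquinone and -0.56 under tetracycline hydrochloride, and all genes medians between -0.30 and -0.19. With loess both lay between -0.02 and 0.02, since loess sets the ratios near 0 along brightness. Relative to the median of all genes, the median-centred Prdx6 ratio was 0.096 under hexachloroethane and negative under the other 5 compounds, between -0.64 under 1,2,3-trichloropropane and -0.23 under 1-amino-2-methylanthraquinone. Relative to the bright genes, it was 0.61 under hexachloroethane and 0.42 under 1-amino-2-methylanthraquinone, 0.080 under tetracycline hydrochloride and 0.042 under 1,2-dichlorobenzene, and -0.016 under monuron and -0.18 under 1,2,3-trichloropropane. Ephx1 relative to the median of all genes was 0.40 under 1,2-dichlorobenzene, 0.13 under 1-amino-2-methylanthraquinone, 0.12 under monuron and 0.066 under hexachloroethane, and -0.19 under 1,2,3-trichloropropane and -0.52 under tetracycline hydrochloride. Relative to the bright genes it was between 0.26 and 0.79 under all but tetracycline hydrochloride, where it was -0.17. Nqo1 and Gpx2 were above 0 under all 6 compounds with either scaling, and Akr7a3 under the same 5, although with median centring Nqo1 under tetracycline hydrochloride and Akr7a3 under hexachloroethane no longer passed the adjusted p.

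**Figure D5:**
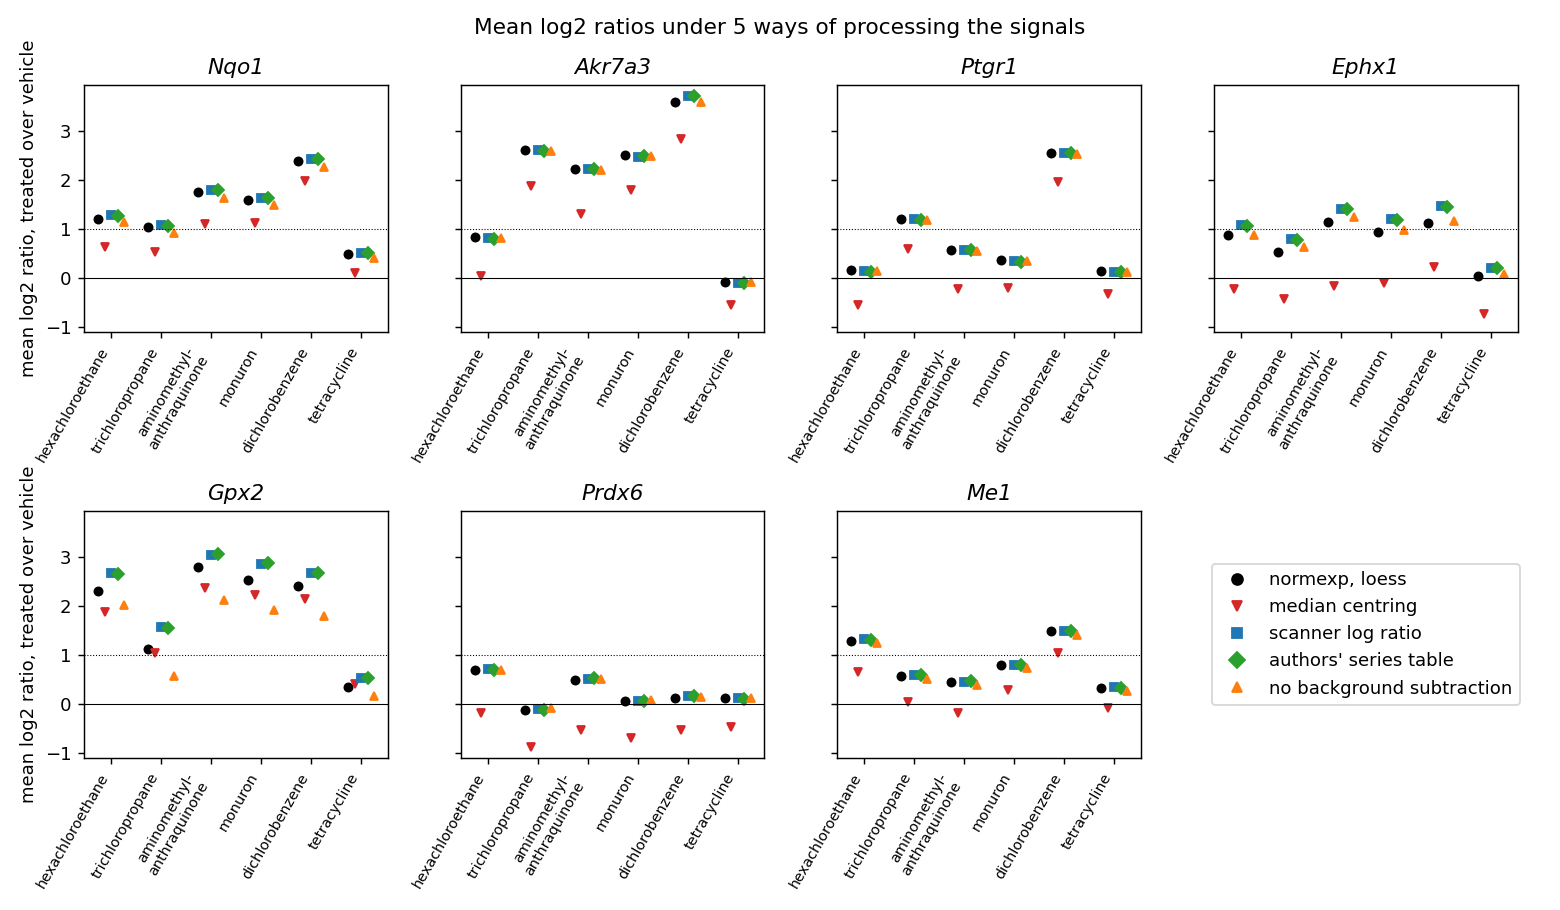
Log2 ratio against vehicle (vertical axes) of each of the 7 genes, with the 6 compounds along the horizontal axes, under the reported processing and its alternatives (points). Median centring gives the lowest values for the bright genes Ephx1 and Prdx6, negative under 5 and all 6 compounds.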

How the data were processed

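For each spot and dye the deposited scanner files gave a mean signal and a median background, an intensity on a linear scale per the file headers, and a log10 ratio computed by the scanner software, Agilent Feature Extraction 9.1.3.1, per the file headers. The deposited series table held a log2 ratio of the same arrays, whose centring is not given in the sources used here. Control RNA had been pooled, and cRNA made by linear amplification carried the dyes, per the labels' protocols. The genome build behind the probes is not given in the sources used here. No array had its dyes swapped, and whether the corn oil compounds shared 1 vehicle pool is not given.

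Intensities were background corrected (normexp, offset 50) and scaled by loess within each array, with limma 3.58.1 in R 4.3.3. Control spots and spots marked as outliers (0 to 74 per array) were left out, the 2 spots of a probe averaged, and the sign set to treated over vehicle. Of 21900 probes, 16768 were kept because, for some compound, 1 channel was well above background in all 4 rats, and the brightest kept probe stood for a gene. Names came from the array, updated through RefSeq tables of GRCr8, in which 6195 probes matched a current symbol, 1915 an older one, 902 a RefSeq record and 621 a gene ID.

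All 24 arrays entered 1 fit (lmFit, eBayes) with 6 compound means and 18 residual degrees of freedom, and the fit was tested on simulated data. Contrasts were each compound against vehicle, against the mean of the other 5, all 15 pairs, and the 4 carcinogens against the 2 non-carcinogens (random block: compound, consensus correlation 0.568). Replicate numbers shared by the compounds were not used to pair rats. Named genes are the 7 genes with all their probes, up to 4 called genes of largest change per list, and the 3 named genes of highest correlation per gene; other genes of the lists were named after their values were seen. The lists covered the Nrf2 machinery, glutathione, thioredoxin, haem, NADPH supply, glutathione transferases, other reductases and peroxidases, conjugation and export, genes that CAR, PXR or the aryl hydrocarbon receptor switch on, lipogenesis, and markers of hepatocytes, bile duct, Kupffer cells, endothelium, stellate cells, lymphocytes, red cell precursors, neutrophils and pancreatic acinar cells. In the last group no marker of endothelium, stellate cells, lymphocytes, neutrophils or acinar cells was called by limma. The 7 genes and the lists were chosen with earlier results of these data known. Alternatives were median centring, the scanner log ratio, the series table, no background subtraction, no filter on dim probes, the mean of all probes of a gene, the replicate number as a block, each compound's arrays alone, the adjusted p alone, and each rat left out in turn. Leaving out each rat in turn from the correlations of deviations was chosen after seeing the data.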

Additional observations from a re-analysis of the deposited data

Results flagged for a closer look

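The highest and the lowest compound differed past an adjusted p of 0.05 in all 7 genes, by limma over all 12079 genes. 1,2-Dichlorobenzene stood above tetracycline hydrochloride by 3.66 log2 in Akr7a3, 2.41 in Ptgr1, 1.90 in Nqo1 and 1.15 in Me1. 1-Amino-2-methylanthraquinone stood above tetracycline hydrochloride by 2.45 in Gpx2 and 1.11 in Ephx1. Hexachloroethane stood above 1,2,3-trichloropropane by 0.81 in Prdx6. In 6 of the 7 genes the lowest compound was thus tetracycline hydrochloride, the one given in water. One rat lay far from its group: rat 1 given 1,2,3-trichloropropane had a Prdx6 ratio of -0.055, apart from the other 3 rats, which lay between -0.15 and -0.14. It was the only such rat among 42 sets of 4 rats, where chance gives about 1 in 20.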

How the results depend on the processing

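The number of the 7 genes called against vehicle was 6 under 1,2-dichlorobenzene in the reported processing. With median centring the count was 1 under hexachloroethane (3 as reported) and 2 under 1,2,3-trichloropropane (4 as reported), where it was also 2 without background subtraction. It was 3 under 1-amino-2-methylanthraquinone (4 as reported) and 5 under 1,2-dichlorobenzene (6 as reported), each without Ephx1, and was as reported under monuron (3) and tetracycline hydrochloride (0 by limma). By the adjusted p alone the counts were 6 under hexachloroethane, 7 under 1,2,3-trichloropropane, 7 under 1-amino-2-methylanthraquinone, 6 under monuron and 3 under tetracycline hydrochloride. Against the mean of the other 5 compounds the adjusted p alone gave 5 under hexachloroethane, 6 under 1,2,3-trichloropropane, 4 under 1-amino-2-methylanthraquinone, 4 under monuron and 7 each under 1,2-dichlorobenzene and tetracycline hydrochloride. The share of all genes that passed the adjusted p alone in this contrast is not given, so these counts stand without it. With 2-fold required as well, 1 gene was called in this contrast under 1,2,3-trichloropropane without background subtraction, Gpx2 at -1.03. The 1 gene under 1-amino-2-methylanthraquinone, Gpx2, became 0 with median centring, the scanner log ratio, the series table, no background subtraction or the mean of all probes, and ranged from 0 to 1 with 1 rat left out. Median centring turned the sign against vehicle of Ptgr1 under hexachloroethane (-0.55), 1-amino-2-methylanthraquinone (-0.22), monuron (-0.20) and tetracycline hydrochloride (-0.33). It turned that of Ephx1 under hexachloroethane (-0.23), 1,2,3-trichloropropane (-0.44), 1-amino-2-methylanthraquinone (-0.17), monuron (-0.11) and tetracycline hydrochloride (-0.73), and under 1,2-dichlorobenzene Ephx1 was 0.21 and no longer called. It turned that of Prdx6 under hexachloroethane (-0.20), 1-amino-2-methylanthraquinone (-0.54), monuron (-0.71), 1,2-dichlorobenzene (-0.53) and tetracycline hydrochloride (-0.48), and that of Me1 under 1-amino-2-methylanthraquinone (-0.19) and tetracycline hydrochloride (-0.086). The differences of Prdx6 from the other 5 compounds became 0.028 under 1,2-dichlorobenzene and 0.095 under tetracycline hydrochloride, and its difference between the classes -0.077. Centring leaves any trend of the ratio with brightness in place, whereas loess removes such a trend whatever its source. No array had its dyes swapped, so a dye effect along brightness and a change of bright transcripts cannot be told apart. The cause of the turned signs was not tested. With 1 rat left out, the class difference of Nqo1 ranged from -0.099 to 0.027, Akr7a3 under tetracycline hydrochloride from -0.14 to 0.029, and the difference of Me1 under monuron from the other 5 compounds from -0.082 to 0.050, and none of these passed as reported. With the replicate block, the number as a fixed term, all counts of called genes and the calls of all 7 genes were as reported, for example 6 under 1,2-dichlorobenzene. Same-numbered arrays correlated at 0.05 on average (-0.26 to 0.39), against -0.02 for arrays of other numbers, and 8 of 24 arrays correlated best with their own number. The numbers were not used to pair rats, and these values cannot exclude a weak link between rats of the same number. Scan day could not be fitted beside compound, which it follows, so the comparisons within days stand in its place. The dimmer Gpx2 probe lay closer to background and gave smaller ratios than the brighter one, and the cause was not tested.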
